A study of Rattus norvegicus with 20 samples.

Results

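Transcripts of 5 antioxidant enzymes were followed in both heart ventricles, right (RV) and left (LV), of male rats that had received saline or monocrotaline (MCT). They were chosen by gene ID: Hmox1 (ENSRNOG00000014117), Nqo1 (ENSRNOG00000012772), Sod1 (ENSRNOG00000002115), Sod2 (ENSRNOG00000019048) and Cat (ENSRNOG00000008364), 5 of the 30452 rows of the count table. The symbols came with this choice, since the table itself holds IDs only, and all 5 passed the filter on low counts. The data were 20 bulk RNA libraries in 4 groups of 5, saline and MCT for each ventricle. MCT, a plant alkaloid that damages the vessels of the lung, is used to model pulmonary hypertension, and the rats received 60 mg/kg of it, or saline, at a body weight of 250 g. They were killed once a discomfort score of 7 or more was reached, so the time from injection is not a fixed one, and the same end point is given for the saline rats. The labels give no strain, genotype or age. Each library was made from a whole homogenised ventricle, so fewer cells of a type and less RNA per cell cannot be told apart.

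Reactive oxygen species are removed in steps. Superoxide dismutases turn superoxide into hydrogen peroxide, Sod1 with copper and zinc mainly in the cytosol and Sod2 with manganese in the mitochondrial matrix, and catalase (Cat) breaks hydrogen peroxide down in peroxisomes. Haem oxygenase 1 (Hmox1) degrades haem to biliverdin, iron and carbon monoxide, and Nqo1 reduces quinones in a way that avoids semiquinone radicals. Hmox1 and Nqo1 are textbook targets of the transcription factor NRF2, which binds antioxidant response elements, and Hmox1 is also strongly expressed by macrophages that take up red cells.

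Total counts ran from 3272420 to 9227104 per library, and the 10 genes with most counts took 25.7% to 50.2% of them. On the first principal component of all tested genes, LV MCT replicate 3 (score -21.0) and RV MCT replicate 4 (score -30.3) lay within the range of the saline libraries, while the other MCT libraries lay above it (7.12 to 54.1, against -31.0 to -9.61 after saline). In LV MCT replicate 3 the 10 top genes held 50.2% of the counts and in RV MCT replicate 4 they held 48.6%. In saline libraries this share ran from 35.6% to 47.9% in the LV and from 34.6% to 50.2% in the RV. The MCT responses of the members are given with and without both LV MCT replicate 3 and RV MCT replicate 4. Whether each library of a group is a separate rat is not stated, so the p-values reflect spread among libraries, which may be partly technical. Saline replicates 4 and 5 of each ventricle carry the same date-like description code apart from a suffix.

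In the LV, MCT changed 2 of the 5 enzymes: Hmox1 rose 5.65-fold and Sod2 fell to 0.612 of its saline level (edgeR quasi-likelihood test, adjusted p under 0.05). Over all 10929 genes tested, 9.52% were called in this comparison, 5.45% as higher and 4.06% as lower. Nqo1, Sod1 and Cat did not pass the test. In the RV none of the 5 was called with edgeR, where 0.274% of all genes were called, with 1 member (Hmox1) at an unadjusted p under 0.05. DESeq2 and limma voom also called 0 members in the RV, where they called 402 and 275 of the 10929 genes. The median edgeR log2 fold change over all tested genes was 0.03 in the LV and 0.012 in the RV.

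**Figure D1:**
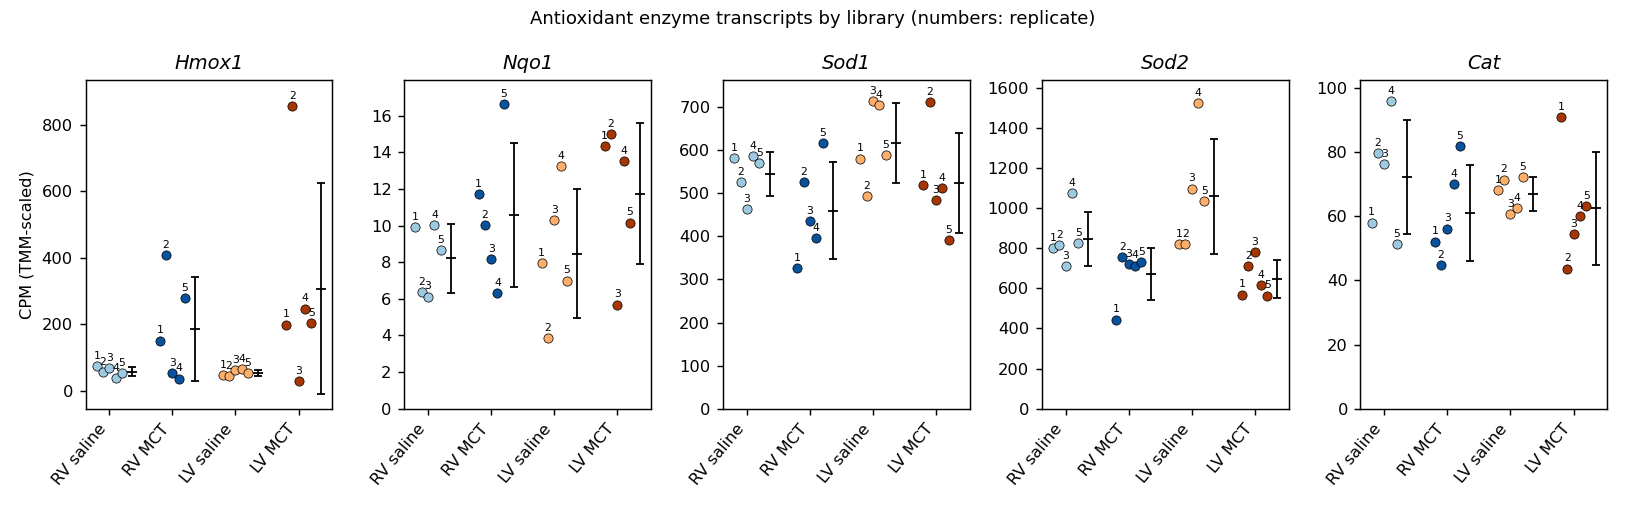
TMM-scaled CPM (counts scaled to a common library size) of each enzyme (vertical axes, from 0 or just below) in the 20 libraries, by group. Points are libraries with their replicate number and bars are mean ± SD (n = 5). Hmox1 after MCT reaches 855 CPM in LV replicate 2 and 408 CPM in RV replicate 2, and Sod2 in every LV MCT library lies below every LV saline library.

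Hmox1 had the largest change of the set. In the LV after MCT its CPM (counts scaled to a common library size with TMM factors) was 199, 855, 30.6, 247 and 205 CPM in replicates 1 to 5, and after saline 47.1, 44.1, 62.1, 64.8 and 53.9 CPM. The level of 4 MCT libraries was above that of every saline library, and LV MCT replicate 3 was below them all, so the groups overlapped. The means were 307 ± 317 CPM (SD, n = 5) and 54.4 ± 9.05 CPM. The log2 fold change was 2.498 (SE 0.63, 95% confidence interval 1.19 to 3.81, edgeR adjusted p = 0.021), and 0.457% of all tested genes had a higher one. The spread widened along with the mean, from 16.6% of the mean after saline to 103% after MCT, where counting error alone accounts for about 5.04%.

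The size of the LV difference rested on 1 library. Without LV MCT replicate 2, the highest, the log2 fold change was 1.63 (SE 0.55, edgeR adjusted p = 0.075), a 3.09-fold difference that no longer passed the threshold. With the other normalization, filters, tools and model terms, and with each library left out in turn, its log2 fold change stayed between 1.63 and 2.79 and the adjusted p between 0.0014 and 0.11. On library totals it was 2.89 (edgeR adjusted p = 0.0066). Relative to the median of all tested genes it was 2.47 with TMM and 2.50 on library totals.

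In the RV after MCT, Hmox1 stood at 151, 408, 54.3, 37.1 and 278 CPM in replicates 1 to 5, and after saline at 75.3, 57.1, 69.0, 38.0 and 53.1 CPM. Replicates 1, 2 and 5 were above every saline library, replicate 3 was among them and replicate 4 just below them. The means were 186 ± 157 CPM (SD, n = 5) and 58.5 ± 14.5 CPM. Its log2 fold change was 1.67 (SE 0.61, 95% confidence interval 0.40 to 2.94, edgeR unadjusted p = 0.013, adjusted p = 0.16), so the RV difference was not called. Of all tested genes, 1.10% had a higher log2 fold change in the RV.

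Leaving out LV MCT replicate 3 and RV MCT replicate 4 moved Hmox1 in the RV to 1.93 on the log2 scale (SE 0.46, edgeR adjusted p = 0.014), and its LV value to 2.79 (SE 0.48, edgeR adjusted p = 0.00070). This choice was made after the data were seen and drops libraries that resembled saline, which favours a call. Of all 11114 genes then tested, 1076 were called in the RV and 2016 in the LV. With all libraries, 30 and 1040 of 10929 genes were called. Among the other members, none changed its call or direction in either ventricle without both libraries. In the LV, Sod2 was then at -0.78 (SE 0.20, edgeR adjusted p = 0.0097) and Nqo1 at 0.62 (SE 0.26, adjusted p = 0.11), with Sod1 at -0.21 and Cat at -0.052. The RV values were -0.35 for Sod2, 0.47 for Nqo1, -0.20 for Sod1 and -0.30 for Cat, with adjusted p from 0.29 to 0.57. The part of these libraries' share of top genes in the Hmox1 values was not tested.

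**Figure D2:**
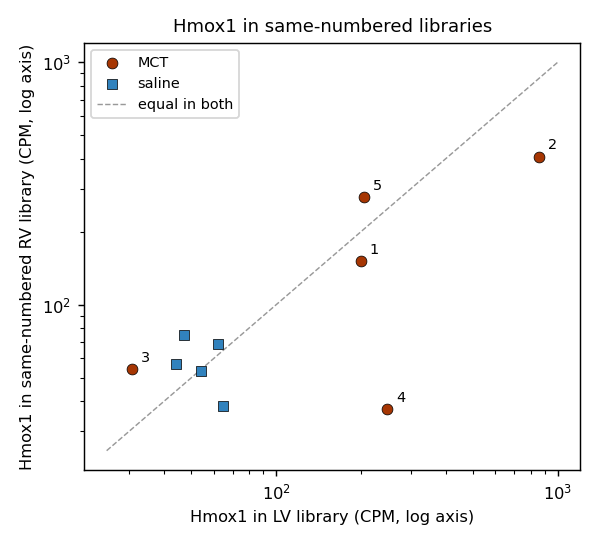
Hmox1 in the LV library (horizontal axis, CPM, log scale) and in the RV library of the same treatment and replicate number (vertical axis, CPM, log scale). Circles are MCT libraries with their number and squares are saline libraries. MCT number 2 is highest in both ventricles, number 3 is low in both, and number 4 is high in the LV (247 CPM) and low in the RV (37.1 CPM).

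Same-numbered RV and LV libraries carry the same date-like description code, although the labels do not state that they come from the same rat. Under MCT, number 2 had the highest Hmox1 of its group in both ventricles. Number 3 was lowest in the LV and next to lowest in the RV. Number 4 was second highest in the LV at 247 CPM and lowest in the RV at 37.1 CPM, so the ventricles of that number stood furthest apart in rank.

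Nqo1, the quinone reductase, was the least counted member, with 11 to 174 counts per library. In the LV after MCT it stood at 14.4, 15.0, 5.69, 13.5 and 10.2 CPM, and after saline at 7.95, 3.85, 10.3, 13.3 and 7.00 CPM. The replicates 1, 2 and 4 after MCT were above every saline library, by a narrow margin for replicate 4, and LV MCT replicate 3 was again the lowest of its group. Against saline the log2 fold change was 0.47 (SE 0.29, 95% confidence interval -0.14 to 1.08, edgeR adjusted p = 0.34). With limma voom and quality weights it was 0.72 (SE 0.23, adjusted p = 0.023), which passed the threshold. That tool called 2911 of 10929 genes in the LV, where edgeR called 1040.

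In the RV, Nqo1 stood at 11.7, 10.03, 8.18, 6.30 and 16.6 CPM after MCT and at 9.93, 6.38, 6.12, 10.03 and 8.65 CPM after saline. The groups overlapped, with RV MCT replicate 5 highest and replicate 4 the lowest of the MCT libraries. For the RV the log2 fold change was 0.35 (SE 0.29, 95% confidence interval -0.26 to 0.97, edgeR adjusted p = 0.59). Counting error was 14.8% to 19.3% of the level, within a spread between libraries of 22.9% to 41.8% in the 4 groups. The intervals reach 1.95-fold in the RV and 2.12-fold in the LV, so the edgeR values do not show that Nqo1 was unchanged.

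Of the dismutases, Sod2 was called in the LV and Sod1 was not, and the difference between their changes was not tested. To show what lies upstream of each, their promoters are given from 250 bases before to 50 bases after the start site, from RefSeq on GRCr8. That is another assembly than the builds named for the counts. Promoters were found for 4 of the 5 members, all but Hmox1, and capitals mark the motif matches named below.

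Sod2 (chr1:50050119-50050418, minus strand): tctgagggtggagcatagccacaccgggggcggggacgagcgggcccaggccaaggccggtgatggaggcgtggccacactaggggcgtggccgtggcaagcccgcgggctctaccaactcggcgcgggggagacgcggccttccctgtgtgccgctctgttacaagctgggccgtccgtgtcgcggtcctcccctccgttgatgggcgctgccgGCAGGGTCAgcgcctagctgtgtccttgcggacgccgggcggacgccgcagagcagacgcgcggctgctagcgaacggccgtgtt

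Sod1 (chr11:42942573-42942872, plus strand): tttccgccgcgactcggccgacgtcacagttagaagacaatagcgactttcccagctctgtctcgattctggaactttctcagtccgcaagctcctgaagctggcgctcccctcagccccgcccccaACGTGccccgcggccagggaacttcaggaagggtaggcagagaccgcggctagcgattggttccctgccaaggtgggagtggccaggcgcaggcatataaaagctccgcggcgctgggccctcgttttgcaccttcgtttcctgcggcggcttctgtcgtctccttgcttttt

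Motifs were searched on both strands. The capitals in Sod2 are a match to the core of the antioxidant response element, TGACNNNGC, on the reverse strand, beginning at position -35 from the start site. Of all 33469 promoters of the same length, 12.1% hold that core. The capitals in Sod1 are ACGTG, the core of the hypoxia response element, at position -123, a core found in 19.3% of all promoters. The AP-1 motif TGANTCA (in 7.33% of all promoters), the forkhead motif GTAAACA (3.78%), the E-box CACGTG (6.42%) and the longer hypoxia variant TACGTGC (0.86%) had no match in the members' windows. The last 2 of these contain ACGTG. The Cat and Nqo1 windows matched none of the 6 motifs. Sequence outside the windows was not searched, so elements further from the start site would be missed. These matches are descriptions of letters and carry no test. All 4 windows were richer in G and C than the median promoter (51.7%), with 72.0% in Sod2, 61.3% in Sod1, 59.3% in Cat and 56.3% in Nqo1.

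In the LV after MCT, Sod2 stood at 569, 711, 779, 616 and 564 CPM in replicates 1 to 5, and after saline at 820.5, 820.3, 1097, 1524 and 1034 CPM. Every MCT library was below every saline library. Of all tested genes, 3.82% were lower without overlap in this comparison and 3.21% were higher without overlap. The means were 648 ± 94.2 CPM (SD, n = 5) and 1059 ± 288 CPM. Sod2 had a log2 fold change of -0.71 (SE 0.19, 95% confidence interval -1.10 to -0.32, edgeR adjusted p = 0.024).

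The Sod2 call lay close to the threshold and changed with the scaling. With single libraries left out, it was lost without LV MCT replicate 1, 4 or 5 (adjusted p = 0.055, 0.054 and 0.061) and without LV saline replicate 3 or 4 (adjusted p = 0.051 and 0.072). The TMM scaling factors of LV MCT libraries ran from 0.788 to 1.32 and those of LV saline libraries from 0.815 to 0.934. On library totals without these factors, only 2 of 5 MCT libraries lay below all saline libraries, the means were 705 ± 79.7 CPM and 922 ± 277 CPM (SD, n = 5), and the log2 fold change was -0.39 (SE 0.22, edgeR adjusted p = 0.20). That scaling moved the median log2 fold change of all tested genes from 0.03 to 0.39. Relative to the median, Sod2 was at -0.74 with TMM and -0.77 on library totals.

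**Figure D3:**
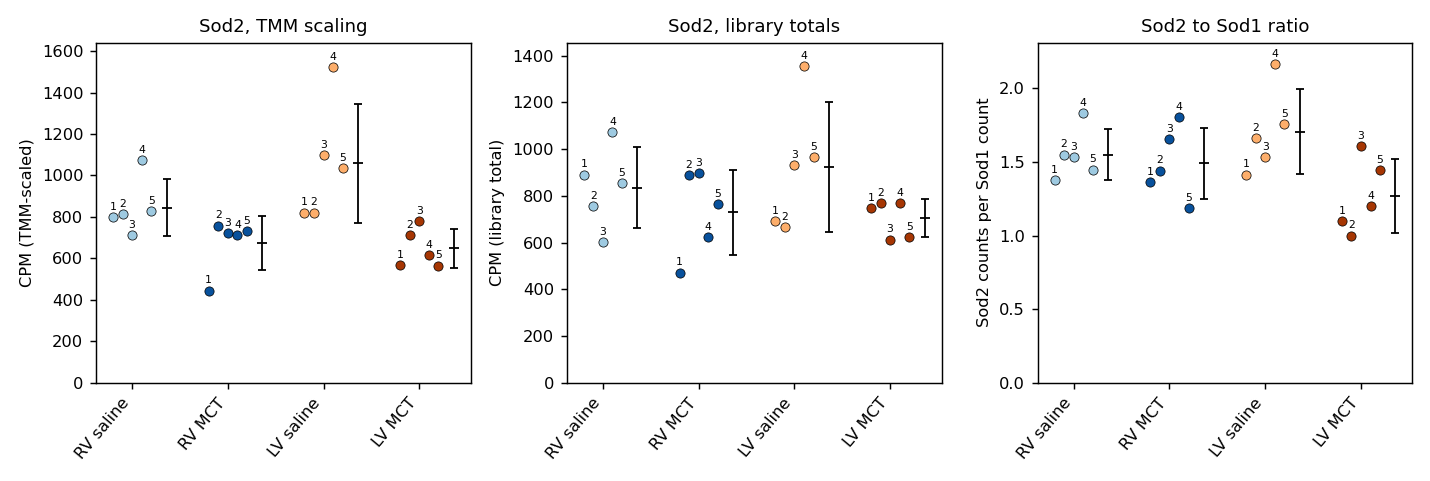
Sod2 by library and group, as TMM-scaled CPM, as CPM on library totals, and as Sod2 counts per Sod1 count (vertical axes from 0). Points are libraries with their replicate number and bars are mean ± SD (n = 5). The LV groups are apart with TMM scaling and overlap in the other panels, where the ratio averages 1.27 after MCT and 1.71 after saline.

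In the RV, Sod2 stood at 444, 758, 722, 714 and 730 CPM after MCT and at 799, 815, 712, 1074 and 826 CPM after saline. RV MCT replicate 1 was far below the others, which overlapped the saline range only through RV saline replicate 3. The log2 fold change was -0.33 (SE 0.19, 95% confidence interval -0.72 to 0.06, edgeR adjusted p = 0.38), and no call was made.

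Sod1 stood at 519, 712, 484, 512 and 391 CPM in the LV after MCT and at 581, 494, 715, 704 and 588 CPM after saline. The groups overlapped widely. Sod1 had a log2 fold change of -0.23 (SE 0.18, 95% confidence interval -0.61 to 0.14, edgeR adjusted p = 0.45), and on library totals its sign turned to 0.12 (adjusted p = 0.71). Relative to the median of all tested genes it was -0.265 with TMM and -0.266 on library totals. In the RV, Sod1 stood at 326, 526, 436, 396 and 616 CPM after MCT and at 581, 526, 464, 586 and 570 CPM after saline. RV MCT replicates 1, 3 and 4 lay below every saline library and replicate 5 above them all, with a log2 fold change of -0.25 (SE 0.18, 95% confidence interval -0.62 to 0.12, edgeR adjusted p = 0.52).

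The count of Sod2 per count of Sod1 within a library does not depend on the scaling. It was chosen as a measure after the values were seen and is given with no test. In the LV it was 1.10, 0.9995, 1.61, 1.20 and 1.44 after MCT and 1.41, 1.66, 1.53, 2.16 and 1.76 after saline, with means of 1.27 ± 0.252 (SD, n = 5) and 1.71 ± 0.287. In 3 MCT libraries, replicates 1, 2 and 4, it was below every saline library. In the RV the means were 1.49 ± 0.243 after MCT and 1.55 ± 0.175 after saline, with overlapping ranges of 1.18 to 1.80 and 1.38 to 1.83.

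Cat, the peroxisomal catalase, was not called in either ventricle. A pseudogene overlaps it in the RefSeq annotation, and a lncRNA overlaps Hmox1, so counts of these genes may include reads of their neighbours. In the LV it stood at 90.9, 43.6, 54.3, 59.9 and 63.2 CPM after MCT and at 68.2, 71.4, 60.6, 62.4 and 72.2 CPM after saline. The saline libraries lay close together, with an SD of 7.84% of the mean against 28.2% after MCT. The MCT libraries fell on either side of the saline range, replicate 1 above it and replicates 2, 3 and 4 below. The log2 fold change was -0.10 (SE 0.20, 95% confidence interval -0.51 to 0.32, edgeR adjusted p = 0.81), and on library totals its sign turned to 0.29 (adjusted p = 0.36). Relative to the median of all tested genes it was -0.127 with TMM and -0.093 on library totals.

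In the RV, Cat stood at 52.1, 44.7, 56.2, 70.0 and 82.0 CPM after MCT and at 58.0, 79.6, 76.3, 96.0 and 51.3 CPM after saline. These groups overlapped, with only RV MCT replicate 2 below all saline libraries. The log2 fold change was -0.24 (SE 0.20, 95% confidence interval -0.66 to 0.17, edgeR adjusted p = 0.58). The intervals leave changes of up to 0.632 or 1.13 times the saline level in the RV and of 0.700 or 1.25 times in the LV.

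**Figure D4:**
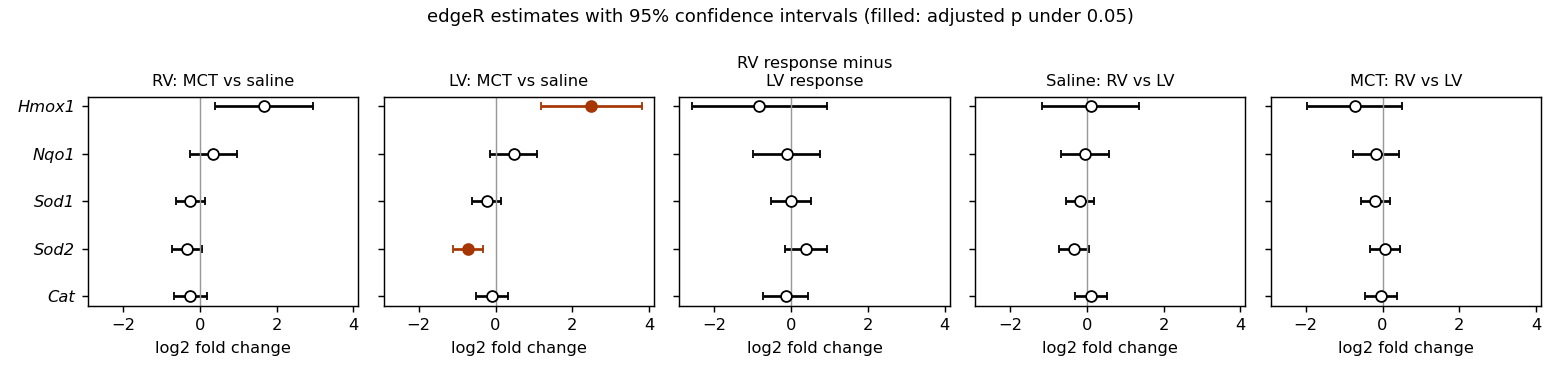
The log2 fold changes (horizontal axis) of the 5 enzymes in 5 comparisons, with 95% confidence intervals from the edgeR fit. Filled points passed an adjusted p of 0.05, which only Hmox1 (2.498) and Sod2 (-0.71) did, both in the LV.

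The responses of both ventricles were then compared within the same fit. That fit treated all libraries as independent, although same-numbered RV and LV libraries share a description code. No member's response differed between RV and LV with edgeR (adjusted p = 0.9999 for all 5, 0 at an unadjusted p under 0.05), where 0% of all genes were called. DESeq2 and limma voom each called 0 members and 1 of 10929 genes. The RV response minus the LV response of Hmox1 was -0.83 on the log2 scale (SE 0.85, 95% confidence interval -2.59 to 0.93). For Sod2 it was 0.38 (SE 0.26, 95% confidence interval -0.17 to 0.93). For Sod1, Cat and Nqo1 the differences were -0.011, -0.15 and -0.12, with SE 0.25, 0.28 and 0.42. The intervals are wide, so these values do not show that the ventricles responded alike, and the LV calls of Hmox1 and Sod2 are not shown to be particular to the LV. Without LV MCT replicate 2 the Hmox1 difference was 0.039 (SE 0.75). With a block joining same-numbered RV and LV libraries of a treatment, the Hmox1 difference was -0.63 (SE 0.56). For Sod2 that block gave 0.34 (SE 0.22), with 0 members and 0 of 10929 genes called.

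Next, the ventricles were set against each other under the same treatment. After saline, 0 of 5 members were called with edgeR, DESeq2 or limma voom, with 0 at an edgeR unadjusted p under 0.05. Of 10929 genes, edgeR called 8 (0.0732%), DESeq2 90 and limma voom 125. Sod2 had the smallest p, with a log2 RV to LV ratio of -0.33 (SE 0.19, edgeR adjusted p = 0.69) and means of 845 ± 136 CPM in the RV and 1059 ± 288 CPM in the LV (SD, n = 5). The other members had saline log2 ratios of 0.10 for Hmox1, 0.11 for Cat, -0.05 for Nqo1 and -0.18 for Sod1. After MCT, 0 of 5 members were called with the same tools, again with 0 at an unadjusted p under 0.05 and 0% of all genes called, and the log2 ratios ran from -0.73 (Hmox1, SE 0.59) to 0.056 (Sod2, SE 0.19). For Hmox1 the order of group means was LV MCT, RV MCT, RV saline and LV saline, and for Sod2 it was LV saline, RV saline, RV MCT and LV MCT. In each order, no pair of neighbouring groups passed the test.

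The description codes read as dates, with May or June for replicates 1 to 3 and November for replicates 4 and 5 of every group. The LV log2 fold change of Hmox1 was 2.82 (SE 0.90) within the May and June libraries and 1.93 (SE 0.65) within the November libraries, with edgeR adjusted p = 0.30 and 0.12. In the RV the Hmox1 values were 1.61 (SE 0.86) and 1.80 (SE 0.65), with adjusted p = 0.32 and 0.96. The LV log2 fold change of Sod2 was -0.44 (SE 0.24) in May and June and -1.12 (SE 0.29) in November, with adjusted p = 0.48 and 0.070. Hmox1 and Sod2 kept their direction in each set of months, whereas the RV value of Cat turned from -0.46 to 0.049. No member was called within either set, at 3 and 2 libraries per group. Over all genes in the LV, 0 of 10838 were called in May and June and 243 of 11121 in November. Over all genes in the RV, 188 of 10838 and 0 of 11121 were called. With the month as a term in the fit, Hmox1 was at 2.45 (adjusted p = 0.025) and Sod2 at -0.69 (adjusted p = 0.027) in the LV.

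**Figure D5:**
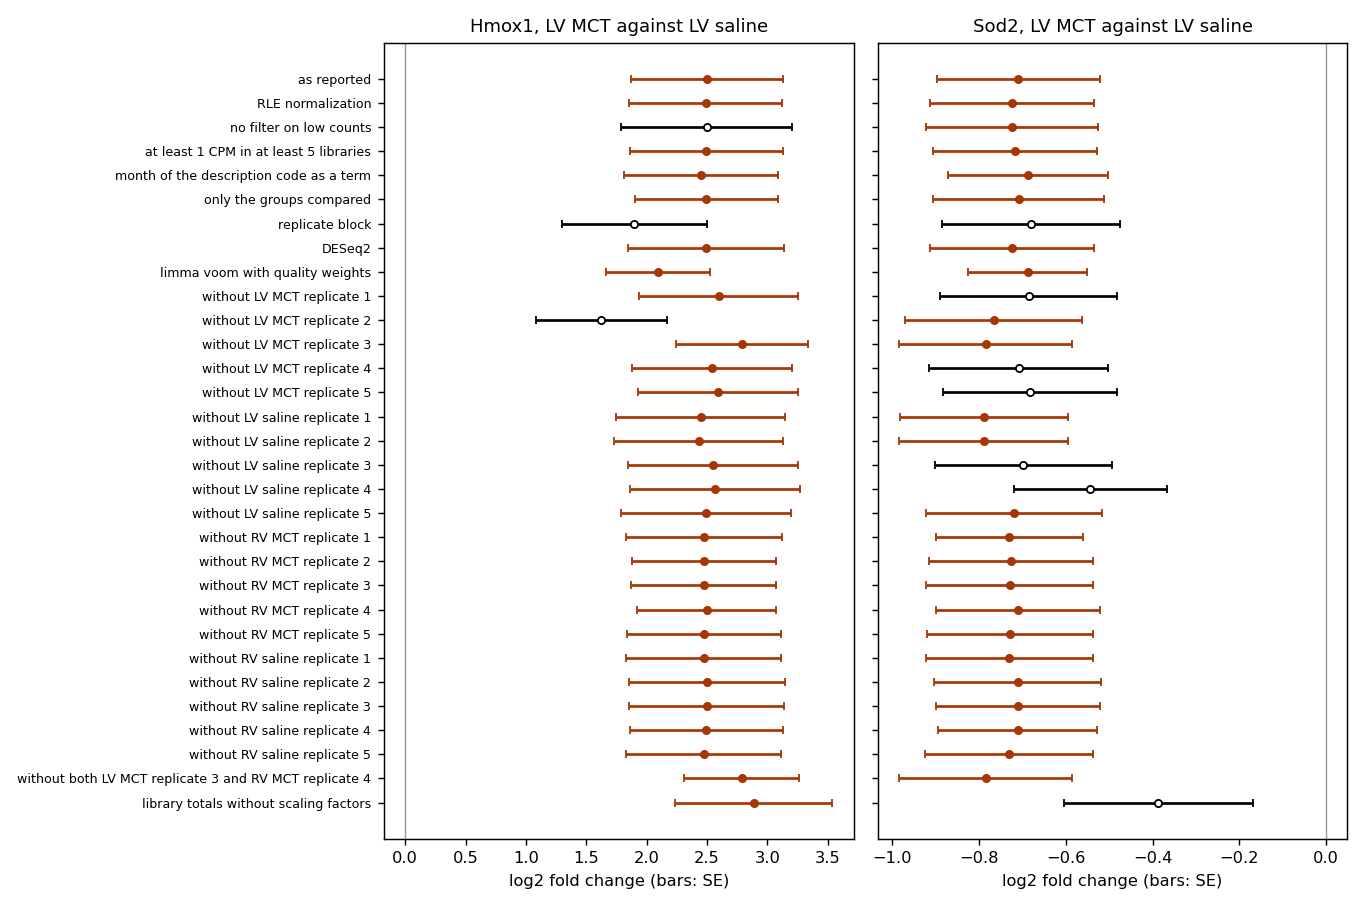
LV log2 fold changes (horizontal axes, bars are SE) of Hmox1 and Sod2 as reported and under each alternative (rows). Filled points have an adjusted p under 0.05. All Hmox1 values lie above 0 and all Sod2 values below, the Hmox1 value is smallest without LV MCT replicate 2 (1.63), and the Sod2 value is closest to 0 on library totals (-0.39).

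The genes whose log2 CPM followed Hmox1 and Sod2 most closely over the 20 libraries were found among 10928 others. For Hmox1 it was ENSRNOG00000002723 (Pearson correlation 0.93, Spearman 0.67), with LV and RV log2 fold changes of 2.17 (SE 0.52, edgeR adjusted p = 0.017) and 1.42 (SE 0.50, adjusted p = 0.15). For Sod2 it was ENSRNOG00000021156 (Pearson 0.96, Spearman 0.97), with -0.81 (SE 0.22, edgeR adjusted p = 0.024) and -0.49 (SE 0.21, adjusted p = 0.23). These pairs share libraries, scaling and group differences, and were picked as the highest of many, so the correlations are descriptions.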

How the data were processed

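Messenger RNA 3' ends were measured in 20 ventricle libraries (QuantSeq, 150 bp read pairs, per the labels' protocols). The deposited values were raw read counts per Ensembl gene ID, a column for each library. Tools in the submitters' processing notes are HTSeq 0.11.3 and STAR 2.7.10a. The same notes name rn6 and mRatBN7.2 as builds, without saying which was used where. Strand setting and annotation release were not given in the sources used here. In the reference table (GRCr8), 1 lncRNA overlaps Hmox1, 1 pseudogene overlaps Cat and 1 pseudogene is named after Sod2, so these counts may be shared.

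Tests used edgeR 4.0.16 (R 4.3.3): TMM, the filterByExpr filter (10929 of 30452 genes, 99.8% of counts), a robust quasi-likelihood fit of 4 group means without a block, and Benjamini-Hochberg adjustment over all genes tested at 0.05. Standard errors came from the F statistic. CPM were TMM-scaled, and log2 CPM used a prior count of 2. Alternatives were those of the closing section, with DESeq2 1.42.0 and limma 3.58.1. The code was tested on simulated counts. No 2 libraries of a group agreed within sampling noise (chi-square per degree of freedom of at least 5.03 over 40 pairs).

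Members, lists and tests were chosen with earlier results of these data known. The named genes are the 5 members, and the closest gene for the member with the largest LV rise and for that with the largest LV fall. Of 132 other listed genes in 16 lists (further antioxidant genes and cell type markers), 0 could be matched to rows, since the reference table gave an Ensembl ID for 0 genes, so they were not analysed here and the tissue labels were not checked against markers.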

Additional observations from a re-analysis of the deposited data

Results flagged for a closer look

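Within the groups of 5, each member's level was searched for a library standing far from the other 4. Of 20 sets, 2 held one, and chance alone picks out about 1 in 20. Hmox1 in LV MCT replicate 2 was the highest of its group at 855 CPM, with the next library at 247 CPM. Sod2 in RV MCT replicate 1 was the lowest of its group at 444 CPM, with the next at 714 CPM. Without LV MCT replicate 2 the LV log2 fold change of Hmox1 was 1.63 in place of 2.498. The cause of either value was not tested.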

How the results depend on the processing

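Of the 5 enzymes, 2 were called in the LV. This number was 1 with no filter on low counts (Hmox1 edgeR adjusted p = 0.060), where 714 of 19211 genes were called. It was 0 with a replicate block fitted to the LV libraries alone, where 356 of 9980 genes were called. Without the block 2 were called there, with 827 of 9980 genes. That block joins MCT and saline libraries by number, although most of these carry different description codes. Limma voom gave 3 (Nqo1 added), with 2911 of 10929 genes called. Single libraries left out gave 1 to 2, with 331 to 1699 genes called. On library totals, an alternative added after seeing the data, it was 1, with 2142 of 10929 genes called. In the RV the number of enzymes called was 0 throughout when single libraries were left out, with 0 to 707 genes called. It was 1 when both LV MCT replicate 3 and RV MCT replicate 4 were left out (also added after seeing the data). That setting called 1076 of 11114 genes in the RV. With the replicate block the LV log2 fold changes were 1.90 for Hmox1 (edgeR adjusted p = 0.11) and -0.68 for Sod2 (adjusted p = 0.088). Deviations of same-numbered RV and LV libraries correlated from -0.177 to 0.59 after saline and from -0.348 to 0.241 after MCT. Between MCT and saline libraries they correlated from -0.315 to 0.218 in the LV and from -0.232 to 0.21 in the RV. These ranges do not settle whether the numbers are pairs, and the main fit took none. The causes of these shifts were not tested.

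Signs turned for differences that were not called. On library totals, LV values were 0.12 for Sod1 and 0.29 for Cat, and saline RV against LV values were 0.016 for Sod1 and 0.15 for Nqo1. Relative to the median of all tested genes, these values kept their TMM sign. They were -0.266 (Sod1) and -0.093 (Cat) in the LV, and -0.18 (Sod1) and -0.045 (Nqo1) for RV against LV after saline. Taking off the median removes a shift common to most genes, as TMM does, so the kept sign is no separate check. The difference of responses of Sod1 was 0.0069 with RLE, 0.0070 with DESeq2 and 0.011 without both libraries. For RV against LV after saline, limma voom gave -0.030 for Cat and 0.098 for Nqo1. The other block, which joins same-numbered RV and LV libraries of a treatment, gave 0.0069 for Nqo1. Leaving out single libraries gave differences of responses from -1.32 to 0.039 (Hmox1), -0.12 to 0.14 (Sod1), -0.25 to 0.052 (Cat) and -0.34 to 0.044 (Nqo1). It gave saline RV against LV values from -0.017 to 0.22 (Hmox1), -0.018 to 0.20 (Cat) and -0.21 to 0.17 (Nqo1), and MCT values from -1.23 to 0.13 (Hmox1) and -0.16 to 0.15 (Cat). Depth limits Nqo1 most, at 11 to 174 counts per library.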
